A study of Mus musculus with 34 samples.

Results

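The genes described here are 10 smooth muscle and mesenchyme genes (Acta2, Tagln, Cnn1, Myl9, Myh11, Cald1, Pdgfra, Pdgfrb, Postn and Thy1), taken by name from the 52636 genes of the deposited expression table. Their levels were followed while mouse embryonic stem cells that were mutant or wild type for the long non-coding RNA locus Handsdown (Hdn) were differentiated with BMP4, a growth factor used to direct these cells toward mesoderm. RNA was sequenced from 30 libraries, in 10 groups of 3. Mutant here stands for a null genotype at Hdn, as labelled by the submitters, who also abbreviate it as KO (knockout). The Hdn mutant groups were undifferentiated F1(G4) stem cells (ESC) and the same cells at days 3, 4, 5 and 6 of differentiation, in which hanging-drop aggregates were plated on fibronectin and given BMP4 at 20 ng/mL without serum. The wild-type groups were F1(G4) cells at the same stages, and every group shared the 129S2/C57Bl6J background and a start in 2i medium after removal of feeder cells. The labels do not state the sequence change of the mutant, how many clones it stands for or whether replicates were separate cultures, so p-values measure only the spread between these samples. The same labels also carry a growth protocol for dissected embryonic hearts and a design text that names Brachyury, neither of which describes these cells.

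Smooth muscle cells contract through a thin filament of actin, here smooth muscle alpha-actin (Acta2), that slides on smooth muscle myosin, with calponin, caldesmon and transgelin bound to the actin. Many of these genes are switched on by serum response factor (SRF), which binds a DNA element named the CArG box together with cofactors of the myocardin family. In early mesoderm and in the embryonic heart several contractile genes are expressed before smooth muscle exists, and Acta2 is also made by young cardiomyocytes. Mesenchymal cells, which include fibroblasts, pericytes and their progenitors, carry the PDGF receptors and secrete matrix proteins such as periostin.

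The RPKM values (reads scaled for gene length and sequencing depth) were divided by a size factor for each library, and levels below are on this scaled RPKM scale. A gene was tested when it reached 1 scaled RPKM in at least 3 libraries, which 14196 genes did. Of the 10 genes, 8 passed and were tested. Tagln and Myh11 reached 1 scaled RPKM in 0 libraries and are given as levels and reads. Differences are on the log2(scaled RPKM + 0.5) scale, which understates the change of low genes, and a difference is called when its Benjamini-Hochberg adjusted limma p over all tested genes is under 0.05 and its size is at least 1. Library totals implied by the values were 43.3 to 68.4 M reads. Hdn itself, listed as 5033428I22Rik, had 0, 0.0121 and 0.00488 scaled RPKM in mutant cells at day 6, against 0.0838, 0.0597 and 0.342 in wild-type cells, and was listed at 0 in every mutant library before day 5. Wild-type cells were also at 0 in every ESC library and at 0.0144 or less through day 4. The mutant zeros of those stages therefore do not separate the genotypes. The values of the 10 genes came out as whole reads (within 0.01 of a read), from a median of 7 reads per library for Myh11 to 5778 for Acta2.

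Promoters are shown for 4 members so that the sequence upstream of contractile genes (Acta2, Myl9, Cnn1) can be read beside that of a receptor gene (Pdgfra). RefSeq promoter windows (GRCm38.p6, 250 bases before to 50 after the start) matched 6 of the 10 members by symbol, with 8 windows in all. The windows printed are chr19:34255324-34255623 on the minus strand for Acta2, chr2:156775214-156775513 on the plus strand for Myl9, chr9:22099003-22099302 on the plus strand for Cnn1 and chr5:75152001-75152300 on the plus strand for Pdgfra, each written 5′ to 3′ along its gene. Capitals mark CArG boxes and their variants with 1 C or G in the middle.
Acta2: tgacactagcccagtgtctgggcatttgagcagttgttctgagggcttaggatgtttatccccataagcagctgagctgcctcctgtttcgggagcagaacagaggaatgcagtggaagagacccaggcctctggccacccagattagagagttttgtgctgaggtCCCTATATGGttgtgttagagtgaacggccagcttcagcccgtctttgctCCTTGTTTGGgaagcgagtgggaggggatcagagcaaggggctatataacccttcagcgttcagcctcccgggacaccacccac
Myl9: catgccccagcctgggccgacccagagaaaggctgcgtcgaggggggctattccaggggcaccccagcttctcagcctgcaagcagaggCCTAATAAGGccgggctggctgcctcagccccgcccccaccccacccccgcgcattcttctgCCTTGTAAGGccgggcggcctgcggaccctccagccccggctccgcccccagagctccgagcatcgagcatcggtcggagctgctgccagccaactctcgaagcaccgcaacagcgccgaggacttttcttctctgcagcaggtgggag
Cnn1: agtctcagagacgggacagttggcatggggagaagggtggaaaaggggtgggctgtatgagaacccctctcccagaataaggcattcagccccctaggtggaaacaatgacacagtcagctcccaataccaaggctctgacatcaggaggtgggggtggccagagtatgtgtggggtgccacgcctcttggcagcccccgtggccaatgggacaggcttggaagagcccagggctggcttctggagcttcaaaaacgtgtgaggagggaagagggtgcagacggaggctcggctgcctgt
Pdgfra: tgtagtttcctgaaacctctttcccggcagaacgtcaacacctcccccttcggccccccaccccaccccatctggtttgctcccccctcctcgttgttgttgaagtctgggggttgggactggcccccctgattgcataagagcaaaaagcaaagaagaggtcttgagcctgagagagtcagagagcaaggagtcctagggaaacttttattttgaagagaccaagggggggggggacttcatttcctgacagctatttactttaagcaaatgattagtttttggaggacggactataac
The Acta2 window holds 2 such variants, 84 and 34 bases before the start. Distances here are to the start on which each window is built. The annotated span of Acta2 begins further upstream, at 34255585, so both variants lie inside that span. The Myl9 window holds a full CArG box 161 bases before the start and a variant 99 bases before it. The search read both strands, and over 32851 RefSeq promoters of the same length 1.63% held a full CArG box and 8.5% the variant. The letters of neither form are in the Cnn1 or Pdgfra window. TATAAA, searched on both strands, was in 13.6% of all windows and, among the matched members, in that of Postn and in an alternative start of Cald1. CATTCC, searched on both strands, was in 14.7% of all windows and in those of Acta2, 146 bases before the start, and of another Cald1 start.

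Where a member was called different from wild type at the same stage, it was higher in mutant cells, and such calls were made at days 4, 5 and 6. Of the 8 tested members, 0 were called higher and 0 lower in mutant ESC, where 8.55% of all tested genes were called higher and 3.13% lower, and 0 either way at day 3, where the shares were 0.873% and 2.48%. At day 4, 2 were called higher (Cald1, Pdgfra), against 2.37% of all genes. At day 5, 3 were called higher (Acta2, Pdgfra, Pdgfrb), against 2.42%. At day 6, 5 were called higher (Acta2, Myl9, Pdgfra, Pdgfrb, Postn), against 3.66%. Postn is counted there as a description only, since it passed the filter through the mutant group of that day. Members were chosen with earlier results of these data known, so the shares over all genes are given for scale. Averaged over the 5 stages, 1 was called higher (Acta2, 1.03, a call lost without any 1 of 7 of the 30 libraries), against 0.768% of all genes, and 0 lower, against 1.89%. None was called lower at days 4, 5 or 6, where 2.81%, 3.59% and 4.12% of all genes were. The median log2 difference over the 8 was -0.13 at day 3, 0.98 at day 4, 0.96 at day 5 and 1.27 at day 6, beside -0.01, 0.00, 0.00 and 0.01 over all tested genes. In bulk RNA, fewer cells of a type and less RNA per cell cannot be told apart.

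**Figure D1:**
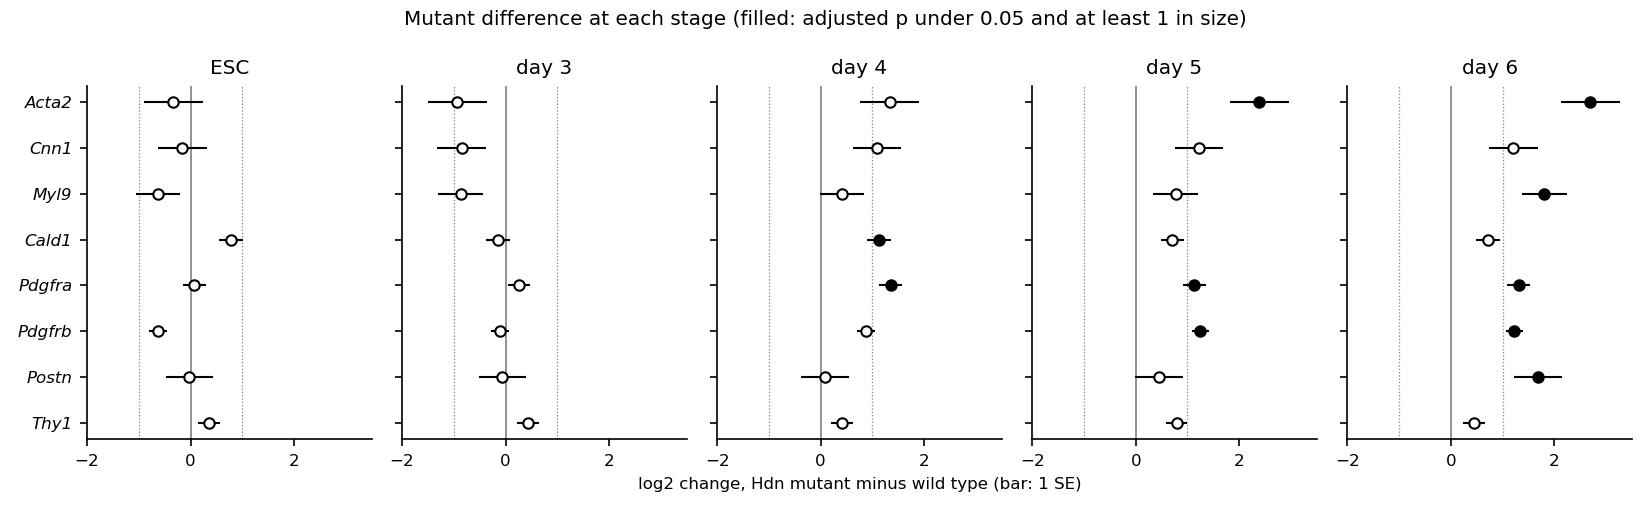
Mutant minus wild-type difference of each tested member on the log2(scaled RPKM + 0.5) scale at ESC and days 3, 4, 5 and 6, with bars of 1 standard error from the limma fit, 3 libraries per group, and filled points where the difference was called. Differences lie below 0 at day 3 for 6 of the 8 members, and at day 6 Acta2 (2.69) and Myl9 (1.81) stand highest.

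Acta2, the actin of smooth muscle thin filaments and the most abundant of the 10, was near the detection floor in stem cells and abundant from day 3. At day 3 it had 36, 37.3 and 42.7 scaled RPKM in mutant cells, against 125, 64.6 and 49.8 in wild-type cells. Every mutant library lay under every wild-type library, yet the log2 difference of -0.93 ± 0.57 (SE) was not called (limma adjusted p = 0.31). At day 4 the values were 149, 173 and 89.2 in mutant cells, against 135, 25.8 and 40.9 in wild-type cells, and the groups overlapped through the first wild-type library. The day 4 difference of 1.33 was not called (limma adjusted p = 0.1), and was called without that library, at 2.01 (0.016). At day 5 they were 253, 196 and 247 in mutant cells, against 31, 51.4 and 52.2 in wild-type cells. The groups stood well apart, with a log2 difference of 2.39 ± 0.57 (limma adjusted p = 0.0037). At day 6 Acta2 had 378, 624 and 585 in mutant cells, against 26.2, 68 and 279 in wild-type cells. The third wild-type library stood above its fellows but below every mutant library, and the log2 difference was 2.69 ± 0.57 (limma adjusted p = 0.00097). With the spread estimated from the day 6 groups alone, this call was lost (adjusted p = 0.06). From day 3 to day 6 Acta2 rose by 3.73 in mutant cells and changed by 0.11 in wild-type cells, where the change was not called, and the difference between these changes was 3.62 ± 0.81 (limma adjusted p = 0.0036).

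Acta2 reads can be shared with other actins whose coding sequences are nearly identical, and how the authors' counting treated such reads is not given in the sources used here. The paralogs were looked at after the values were seen. Acta1, skeletal alpha-actin, had 36.8, 33.8 and 39.2 scaled RPKM in mutant cells at day 3, against 157, 105 and 87.1 in wild-type cells, and at day 6 15.6, 13.7 and 17.3 in mutant cells, against 5.54, 7.68 and 5.99 in wild-type cells. Actc1, cardiac alpha-actin, had 171, 343 and 320 in mutant cells at day 6, against 2.92, 12.6 and 16.4 in wild-type cells. Both were below Acta2 in every day 6 library. The values of Acta2 therefore carry an uncertainty that the table does not resolve.

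Myl9, the regulatory light chain of smooth muscle and non-muscle myosin, had the same order of groups as Acta2 at day 3. It had 30.7, 30 and 31 scaled RPKM in mutant cells at that stage, against 90.7, 49 and 40.5 in wild-type cells. The groups did not overlap, and the log2 difference of -0.87 ± 0.43 was not called (limma adjusted p = 0.18). At day 4 Myl9 had 60.3, 58.7 and 17 in mutant cells, against 64.8, 15.9 and 24.5 in wild-type cells, with wide overlap. At day 5 the mutant cells had 45.3, 38 and 25.8, against 21, 19.4 and 21.3 in wild-type cells, and the difference of 0.77 ± 0.43 was not called although the groups did not overlap. At day 6 the values were 42.5, 70 and 64.9 in mutant cells, against 15.5, 11.6 and 23 in wild-type cells. This difference was called (1.81 ± 0.43, limma adjusted p = 0.0025). Between day 3 and day 6 Myl9 fell by 1.78 in wild-type cells, while the mutant change of 0.91 was not called, and the changes differed by 2.69 ± 0.61 (limma adjusted p = 0.0037).

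Cnn1, calponin 1, which binds actin and restrains the myosin motor in smooth muscle, had its highest mean on different days in the genotypes. That mean was at day 4 in mutant cells and at day 3 in wild-type cells. Days 3 and 4 overlapped in both genotypes, and the change between them was not tested. At day 3 it had 11.8, 11.3 and 14.7 scaled RPKM in mutant cells, against 34.2, 20.4 and 17.5 in wild-type cells. At day 4 it had 39, 32.9 and 8.15 in mutant cells, against 21.1, 5.41 and 8.8 in wild-type cells, and at day 5 16.8, 9.66 and 4.45 in mutant cells, against 3.58, 3.71 and 3.48 in wild-type cells. The third mutant library was the lowest of its group on both days. At day 4 it lay within the wild-type range and below every mutant library of day 3. At day 6 Cnn1 had 5.12, 6.88 and 6.38 in mutant cells, against 1.55, 2.25 and 3.56 in wild-type cells, without overlap. The log2 differences of 1.09 at day 4, 1.22 at day 5 and 1.21 at day 6 (SE 0.47 each) were not called (limma adjusted p = 0.097, 0.067 and 0.058). The day 4 difference was called without the first wild-type library (1.60, limma adjusted p = 0.02). At day 6 it was called without the third wild-type library (1.47, 0.043) and with the spread taken from the day 6 groups alone (1.21, 0.025). From day 3 to day 6 Cnn1 fell by 3.05 in wild-type cells and its mutant change of -0.98 was not called, and the changes differed by 2.07 ± 0.66 (limma adjusted p = 0.035). That call did not outlast the loss of 7 of the 12 libraries it rests on, taken 1 at a time: the first and second mutant libraries of day 3, the second and the third of day 6, the first wild-type library of day 3 and the first and second of day 6. The limma adjusted p without them was 0.064 to 0.1.

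Tagln, transgelin, an actin-binding protein and one of the usual defining markers of smooth muscle, was close to the floor. It had 71, 45 and 68 reads in mutant cells at day 4, against 44, 8 and 7 in wild-type cells, and 26, 33 and 18 in mutant cells at day 6, against 11, 12 and 8 in wild-type cells. On both days every mutant library was above every wild-type library, and an exact permutation test on the scaled RPKM gave 0.1, two-sided, the smallest p that 3 against 3 allows. At day 3 it had 12, 14 and 22 reads in mutant cells, against 101, 83 and 23 in wild-type cells (exact permutation p = 0.2), and the scaled levels overlapped through the third library of each group. Tagln (chr9:45929628-45936058, GRCm38) overlaps 2480 bases of Pcsk7, which had 1.03 to 5.17 scaled RPKM across the 30 libraries. Without stated strand-specific counting, reads of the overlap cannot be assigned to either gene.

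Myh11, the smooth muscle myosin heavy chain and the most specific marker of mature smooth muscle, had few reads anywhere. At day 6 it had 44, 38 and 54 reads in mutant cells, against 3, 1 and 5 in wild-type cells, and at day 5 36, 23 and 11 in mutant cells, against 6, 7 and 7 in wild-type cells. The groups did not overlap on either day (exact permutation p = 0.1, two-sided, the smallest possible here). In level this was 0.115 ± 0.0264 scaled RPKM in mutant cells and 0.00712 ± 0.00456 in wild-type cells at day 6 (SD, n = 3 each). Its level stayed under 1 scaled RPKM in every library, also where Acta2 was abundant. Myocd, the smooth and cardiac muscle cofactor of SRF, had 1.45, 0.922 and 1.67 scaled RPKM in mutant cells at day 6, against 0.117, 0.431 and 0.348 in wild-type cells. Smtn, smoothelin, had 10.5, 10.3 and 11.2 in mutant cells, against 9.07, 13 and 9.95 in wild-type cells, with overlap.

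**Figure D2:**
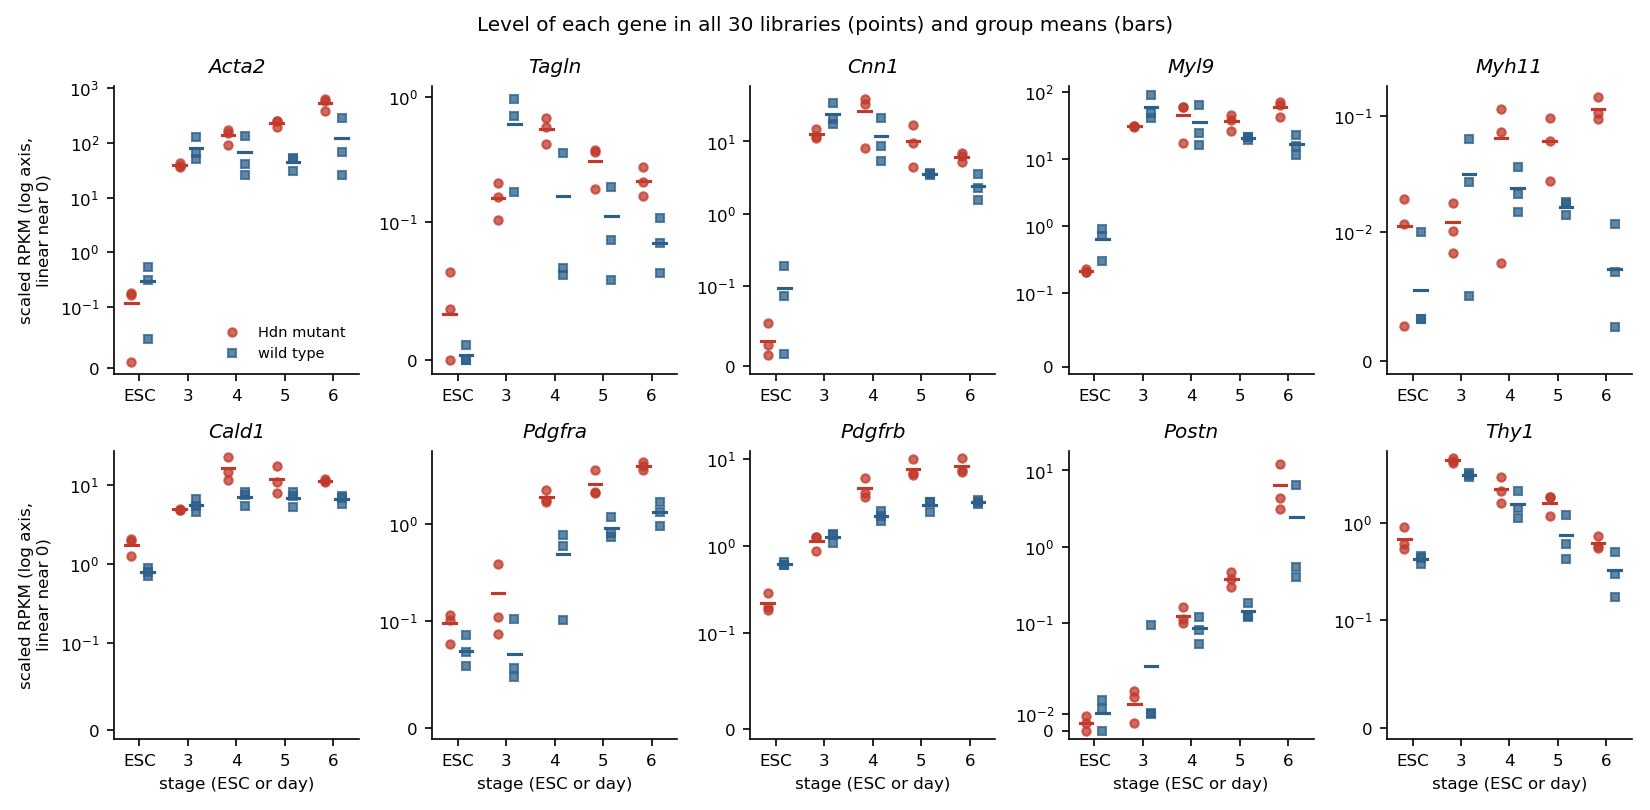
Scaled RPKM of each of the 10 members in every library, by stage, with mutant libraries left of wild-type libraries and a bar at each group mean. The axis is symmetric-log so that values at 0 can be drawn. For Acta2, Cnn1 and Myl9 the 3 mutant libraries lie below the 3 wild-type libraries at day 3 and above them at day 6, and Thy1 peaks at day 3 in both genotypes.

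Cald1, caldesmon, which binds actin, myosin and tropomyosin and is also present in non-muscle cells, was detected in stem cells as well. It had 1.27, 2.09 and 1.95 scaled RPKM in mutant ESC, against 0.703, 0.803 and 0.895 in wild-type ESC, without overlap and below the size needed for a call (log2 0.78, limma adjusted p = 0.0086). At day 4 it had 14.7, 11.7 and 23.1 in mutant cells, against 8.26, 7.63 and 5.52 in wild-type cells. The third mutant library was the highest, and the difference was called (1.12 ± 0.23, limma adjusted p = 0.0012), though it was 0.85 without that library and 0.95 without the third wild-type library, both under the size limit, and its adjusted p was 0.065 with the spread taken from the day 4 groups alone. At day 5 Cald1 had 11.2, 7.98 and 17.5 in mutant cells, against 5.38, 8.27 and 7.33 in wild-type cells, and at day 6 12.2, 11.3 and 10.9 in mutant cells, against 5.89, 6.99 and 7.44 in wild-type cells. The day 6 groups did not overlap, with a log2 difference of 0.72 ± 0.23 that was under the size limit (limma adjusted p = 0.024).

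Pdgfra, the PDGF receptor alpha of early mesoderm and fibroblast progenitors, was low through day 3 and came up at day 4. It had 1.71, 1.78 and 2.25 scaled RPKM in mutant cells at day 4, against 0.101, 0.597 and 0.77 in wild-type cells (log2 1.35 ± 0.22, limma adjusted p = 1e-04). At day 5 it had 2.07, 2.14 and 3.66 in mutant cells, against 0.809, 0.733 and 1.18 in wild-type cells (1.13 ± 0.22, limma adjusted p = 0.00056). At day 6 it had 4.42, 3.96 and 3.64 in mutant cells, against 1.34, 0.956 and 1.7 in wild-type cells (1.31 ± 0.22, limma adjusted p = 7.6e-05). Mutant and wild-type libraries did not overlap on any of these days. Without the third mutant library the day 5 difference was 0.90, under the size limit. From day 3 to day 6 Pdgfra rose in both genotypes, by 2.72 in mutant cells and 1.67 in wild-type cells, and the changes differed by 1.05 ± 0.31 (limma adjusted p = 0.024). This last call was lost without any 1 of 5 of the 12 libraries: the first and second mutant of day 3, the first mutant of day 6, the first wild-type of day 3 and the second wild-type of day 6, with differences of 0.90 to 1.01.

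Pdgfrb, the PDGF receptor beta of pericytes and vascular smooth muscle, had the smallest standard error of the tested members (0.17). In ESC it had 0.283, 0.2 and 0.182 scaled RPKM in mutant cells, against 0.594, 0.649 and 0.595 in wild-type ESC, a log2 difference of -0.63 ± 0.17 that was under the size limit. At day 3 the groups overlapped. At day 4 it had 4.04, 3.59 and 6.09 in mutant cells, against 2.51, 2.18 and 1.95 in wild-type cells (0.88 ± 0.17, limma adjusted p = 6e-04, under the size limit). At day 5 the values were 6.81, 6.49 and 9.87 in mutant cells, against 3.16, 2.42 and 3.17 in wild-type cells (1.25 ± 0.17, limma adjusted p = 8.2e-06). At day 6 Pdgfrb had 10.1, 7.42 and 7.1 in mutant cells, against 3.03, 3.33 and 3.16 in wild-type cells (1.23 ± 0.17, limma adjusted p = 7.4e-06). The groups were apart on all 3 days. From day 3 to day 6 it rose by 2.41 in mutant cells and 1.07 in wild-type cells, and the changes differed by 1.34 ± 0.24 (limma adjusted p = 0.00047).

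Postn, periostin, a matrix protein of heart valves, fibroblasts and bone, stayed under 1 scaled RPKM in every library before day 6. At day 5 it had 0.374, 0.298 and 0.472 scaled RPKM in mutant cells, against 0.125, 0.181 and 0.12 in wild-type cells. At day 6 it had 3.09, 12.1 and 4.3 in mutant cells, against 0.399, 0.536 and 6.44 in wild-type cells. The third wild-type library was above the first and the third mutant libraries, so Postn was the only member whose groups overlapped at day 6. The difference was called (1.69 ± 0.46, limma adjusted p = 0.0076), but with the spread taken from the day 6 groups alone the adjusted p was 0.22, and leaving out the first or second wild-type or the second mutant library also ended the call, with log2 differences of 1.17, 1.27 and 1.16. Postn reached 1 scaled RPKM in 4 libraries, the 3 mutant libraries of day 6 and 1 wild-type library, so it passed the filter through the group in which it was then called higher, and its call is given as a description.

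Thy1, a surface protein of fibroblasts, neurons and lymphocytes, followed another course and peaked at day 3. It had 4.65, 4.35 and 4.15 scaled RPKM in mutant cells at that stage, against 2.96, 3.24 and 3.07 in wild-type cells, without overlap and without a call (log2 0.44, limma adjusted p = 0.17). From day 3 to day 6 it fell by 2.13 in mutant cells and by 2.14 in wild-type cells. At day 6 it had 0.727, 0.546 and 0.571 in mutant cells, against 0.505, 0.301 and 0.172 in wild-type cells. These groups did not overlap either, and the difference of 0.45 was not called (limma adjusted p = 0.13).

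Counted by overlap alone, with the 2 low genes included, the mutant libraries lay above every wild-type library for 2 of the 10 members in ESC (26.2% of all tested genes), 1 at day 3 (18.7%), 4 at day 4 (18.3%), 7 at day 5 (13.8%) and 9 at day 6 (18.4%). They lay below for 2 in ESC (30.6%), 3 at day 3 (23.5%) and 0 at days 4, 5 and 6 (18.9%, 16.4% and 20.7%). The 3 that lay below at day 3 are the contractile genes Acta2, Cnn1 and Myl9. From ESC to day 3, 6 of the 8 tested members rose in mutant cells (18.2% of all genes) and 5 in wild-type cells (17.4%), by 5.99 and 6.58 for Acta2. None fell in either genotype, where 21.6% and 20.3% of all genes did, and the change differed between genotypes for 0 in either direction (2.13% higher and 7.39% lower over all genes). From day 3 to day 6, 5 rose and 1 fell in mutant cells (12% and 5.58% of all genes), and 3 rose and 3 fell in wild-type cells (8.95% and 4.95%). These changes differed between genotypes for 5 members (Acta2, Cnn1, Myl9, Pdgfra and Pdgfrb), each with the more positive change in mutant cells, against 4.35% of all genes, and for 0 in the other direction, against 2.85%. An F test asking whether the mutant difference depended on the stage passed for 6 of the 8, against 42.2% of all genes.

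In order of mean level at day 6, Acta2 (529 scaled RPKM) stood first in mutant cells, followed by Myl9 (59.1), Cald1 (11.4), Pdgfrb (8.21), Postn (6.51), Cnn1 (6.13), Pdgfra (4), Thy1 (0.615), Tagln (0.215) and Myh11 (0.115). Wild-type cells had the same order of means, with 125 for Acta2, 16.7 for Myl9 and 6.77 for Cald1. Postn could not be separated from Pdgfrb or Cnn1 beyond the spread of the libraries in either genotype, nor Cnn1 from Pdgfra in wild-type cells.

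Transcripts of mature heart muscle were present in some mutant libraries, together with adult globins. Myl2, the ventricular myosin light chain, had 17.1 scaled RPKM in the third mutant library of day 4 and 20.7 in that of day 5, against 0.117 to 0.154 in the other mutant libraries of those days, and at day 6 it had 45.2, 129 and 115 in mutant cells, against 0.0157, 0.0362 and 0.0721 in wild-type cells. Hbb-bs, an adult beta-globin, had 19.8 in the third mutant library of day 4 and 27 in that of day 5. Cox8b, a mitochondrial subunit of mature muscle, had 3.08 and 3.02 there. Beside the same day's other mutant libraries, the library with this signal was above both in 5 members at day 4 (Cald1, Pdgfra, Pdgfrb, Postn, Thy1), below both in 4 and between in 1, and above both in 4 and below both in 5 at day 5. Leaving out these libraries was an alternative chosen after seeing the data. Without them, 2 of the 8 tested members were called higher at day 4 (Pdgfra and Cnn1) and 3 at day 5 (Acta2, Pdgfrb and Cnn1), with Cnn1 at 1.78 (limma adjusted p = 0.0015) and 1.70 (0.0017). Cald1 at day 4 and Pdgfra at day 5 lost their calls. Cnn1 was lowest in the libraries left out, so their removal raises its difference. In the full fit 2.37% and 2.42% of all tested genes were called higher on these days. At day 6 the signal was in all 3 mutant libraries, so no day 6 value without it can be given, and its part in the day 6 results was not tested.

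**Figure D3:**
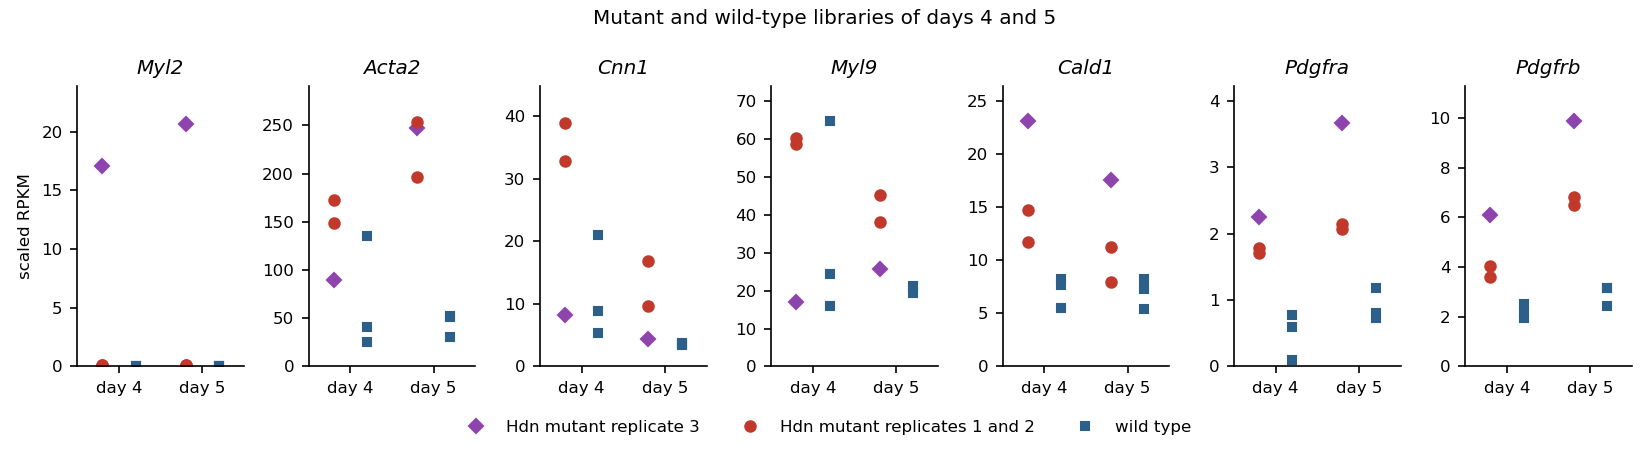
Scaled RPKM (linear axes) of Myl2 and 6 members in each library of days 4 and 5, with the third mutant library of each day drawn as a diamond, the other mutant libraries as circles and wild-type libraries as squares. Cald1, Pdgfra and Pdgfrb are highest in the diamond library on both days, while Cnn1 and Myl9 are the lowest of the mutant libraries there.

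Summed over marker lists, 14 cardiomyocyte genes reached 561 to 1160 scaled RPKM in mutant cells at day 6, against 23.6 to 131 in wild-type cells, with 0 of them at 0 throughout either group. Myl4, alone of that list, overlapped at day 6 (15, 24.3 and 31.7 in mutant cells, against 14.2, 27.6 and 29.4). At days 4 and 5 its mutant libraries lay below every wild-type library. Adult red cell genes (4) summed to 249 to 719 in mutant cells, against 0.309 to 49 in wild-type cells. Of 6 genes of mature muscle mitochondria the sum was 67.2 to 172 in mutant cells, against 25.1 to 36.8 in wild-type cells, where Cox8b and Ckmt2 were at 0. Cox7a1 made up most of the wild-type sum and itself overlapped (18.5, 33.7 and 34.4 in mutant cells, against 23.2, 29 and 34.3). Fibroblast and feeder genes (7, of which the collagen genes are also on a list below) summed to 78 to 152 in mutant cells at day 6, against 15.4 to 46.1 in wild-type cells, and at day 5 to 53.6 to 75.7, against 7.2 to 20.6. Col1a1 made up most of the mutant sum at day 6 (111, 99.7 and 60.7). It and Col1a2 did not overlap between the genotypes on that day, while Col3a1, Lum, Dcn and Fap did. S100a4 of that list was at 0 in both day 6 groups. At day 6 the 6 primitive endoderm genes summed to 37.6 to 50.4 in mutant cells, against 10.3 to 24.1 in wild-type cells, the 5 pluripotency genes to 26.2 to 39.3, against 46.2 to 84, and the 4 neural genes to 17.9 to 23, against 23.4 to 35.1. None of these 3 sums overlapped between the genotypes, but single genes weighed heavily in the endoderm and neural sums. Gata6 made up most of the mutant endoderm sum (32.6, 30.1 and 24.5, against 4.46, 7.62 and 14.2 in wild-type cells). Foxa2 of that list overlapped (5.45, 2.1 and 2.64, against 4.18, 3.67 and 0.626). Tubb3 made up most of the neural sum and itself overlapped (19.4, 22.7 and 17.6, against 21.4, 31.9 and 35). Other sums did overlap between the genotypes at day 6. The 5 endothelium genes summed to 10.7 to 21.5 in mutant cells, against 10.4 to 13.4 in wild-type cells. The 4 epicardium genes summed to 9.37 to 23, against 2.35 to 14.8. The third wild-type library of day 6, high in Acta2 and Postn, also stood apart in Lum, a collagen-binding matrix gene (3.36, against 0.368 and 0.144 in the other wild-type libraries), and in the alpha-globin Hba-a1 (23.7, against 0.358 and 0.13). Without that library, Acta2 and Postn were called at day 6 at log2 differences of 3.60 and 2.64. It holds the highest wild-type value of both, so leaving it out can only enlarge these differences and is no check on the calls. The first wild-type library of day 3 was the highest of its group in every member except Pdgfrb and Thy1, where it was the lowest. It also stood apart in Col3a1 (1.97, against 0.0155 and 0.0198) and Hbb-bs (1.44, against 0 and 0.0194). In Col1a1 it did not (3.4, against 3.77 and 3.74). The part of these cell types in the members' levels was not tested.

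Other genes of the same programmes were read from 4 lists. Of 18 contractile regulators and other smooth muscle genes, 15 were tested, and 0 were called higher in mutant cells at day 4, 1 at day 5 and 2 at day 6, with median log2 differences of 0.24, 0.40 and 0.41. Over all tested genes, 2.37%, 2.42% and 3.66% were called higher on these days. The gene called at day 5 was Actg2, the gamma-actin of visceral smooth muscle, at 1.19, 1.43 and 1.86 scaled RPKM in mutant cells, against 0.0606, 0.209 and 0.117 in wild-type cells (log2 1.66 ± 0.22, limma adjusted p = 6e-06). It reached 1 scaled RPKM in 6 mutant libraries, those of days 5 and 6, and in 1 wild-type library, so it too passed the filter through the groups in which it was called. At day 6 it was called again, together with Flna, filamin A, an actin cross-linker named here after its values were seen (1.05 ± 0.17, limma adjusted p = 7e-05), which was 0.93 without the first mutant or the second wild-type library. Tpm1, an alpha-tropomyosin, differed by 0.78 ± 0.15 at day 6, under the size limit. Tagln2, a broadly expressed relative of Tagln, differed by -0.75 ± 0.20, also under it. Mrtfa, a myocardin-family cofactor of SRF, differed by -0.40 ± 0.12 averaged over stages (limma adjusted p = 0.0091), under the size limit, and by -0.20 ± 0.28 at day 6 (0.65).

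Of 9 PDGF ligands and pericyte genes, 7 were tested, and 4 were called higher at day 4, 3 at day 5 and 1 at day 6. The shares over all tested genes were 2.37%, 2.42% and 3.66%. Rgs5, a G-protein regulator used as a pericyte marker, was called on all 3 days, at log2 2.20, 2.22 and 1.71 (SE 0.41 each, limma adjusted p = 0.00042, 0.00033 and 0.0031). Without the third mutant library of day 4, which carries the mature heart transcripts, its day 4 difference was 1.44 and still called. Pdgfc, a ligand of the alpha receptor, was called at day 4 (1.03 ± 0.20, limma adjusted p = 0.00056) and day 5 (1.23 ± 0.20, limma adjusted p = 6.7e-05). The day 4 difference was 0.72 without that library, 0.92 without the first wild-type library and just under 1 without the third, each below the size limit. Mcam, an adhesion molecule of pericytes and endothelium, was called on the same days, at 1.02 and 1.24, and Anpep, a surface peptidase of pericytes, at day 4 (1.11). The Mcam call was lost at day 4 without the first or the second mutant or the second or the third wild-type library and at day 5 without the second wild-type library (0.94), and that of Anpep without the first wild-type library (0.78). With the spread taken from the compared groups alone, 0 of the 7 were called at day 4.

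Of 20 mesenchyme and matrix genes, 16 were tested, and 4 were called higher in mutant cells at day 4, 7 at day 5 and 9 at day 6, with medians of 0.51, 0.94 and 1.22. Among all tested genes 2.37%, 2.42% and 3.66% were called higher on these days. Of the wild-type libraries, only the third of day 6 reached 1 scaled RPKM in Tcf21 (2.54). In Col3a1 only that library (6.95) and the first of day 3 (1.97) did. Both genes therefore passed the filter through mutant libraries, and the counts of this list are given as a description. Col1a1, a chain of type I collagen, differed by 1.42 at day 4, 2.36 at day 5 and 2.10 at day 6 (SE 0.34 each, limma adjusted p = 0.0038, 1.8e-05 and 4.9e-05). Vim, the intermediate filament of mesenchymal cells, differed by 1.68, 1.60 and 1.55 on these days (SE 0.30 each), each called. Snai2, a transcription factor of epithelial-mesenchymal transition, differed by 1.57, 1.66 and 1.59 (SE 0.41 each), each called. Its day 4 call was lost without the third mutant library, which carries the mature heart transcripts (0.91), and its day 6 call without the second wild-type library (1.16, limma adjusted p = 0.064). Cdh2, N-cadherin, was called at day 4 (1.82 ± 0.31) and day 6 (1.37 ± 0.31). At day 4 the count was 0 with the spread taken from the compared groups alone.

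All 12 genes of the TGF beta pathway and its targets were tested, and 5 were called higher on each of days 4, 5 and 6, with medians of 0.73, 0.72 and 0.84. The shares called higher over all tested genes were 2.37%, 2.42% and 3.66%. The day 4 count was 2 with the spread taken from the compared groups alone and 3 without the second wild-type library. Tgfb2, a ligand that acts in the endocardial cushions of the heart, differed by 1.99, 1.67 and 1.79 (SE 0.19 each, limma adjusted p = 7.3e-08, 6.2e-07 and 1.6e-07). Tgfbi, a matrix protein induced by TGF beta, differed by 1.68, 1.92 and 1.81 (SE 0.28 each), each called. Ccn2, a matricellular target of the pathway, differed by 1.18, 1.16 and 1.30 (SE 0.26 each), each called, at day 4 not without the second (0.91) or the third wild-type library. Tgfb1, another ligand of the pathway, was also called on all 3 days, and Ccn1, a matricellular protein, at day 4, both named after their values were seen. The Tgfb1 call at day 6 was lost without the first wild-type library (0.94), and that of Ccn1 without the first mutant or the second wild-type library. Tgfbr1, the type I receptor, differed by 0.55, 0.51 and 0.97, under the size limit. None of the genes on the 4 lists was called lower at days 4, 5 or 6, where 2.81%, 3.59% and 4.12% of all tested genes were. At such shares, lists of this length hold few calls of lower level. At day 3, 1 mesenchyme and matrix gene and 1 TGF beta gene were called lower, where 2.48% of all tested genes were.

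**Figure D4:**
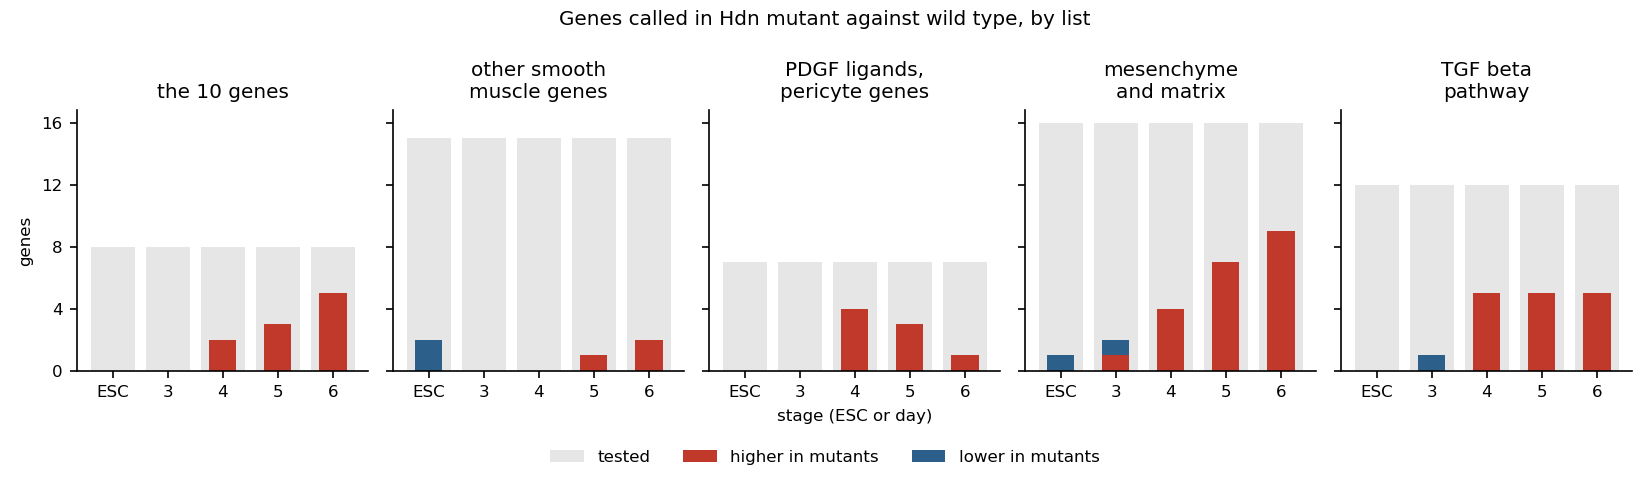
Number of genes called higher or lower in mutant against wild-type cells at each stage, for the members and 4 related gene lists, with the number tested in grey. Calls of higher level lie mostly at days 4, 5 and 6, where the mesenchyme and matrix list reaches 9 of 16 at day 6 and the other smooth muscle genes 2 of 15. Over all tested genes 2.37%, 2.42% and 3.66% were called higher at days 4, 5 and 6. Postn, Actg2, Col3a1 and Tcf21 are among the genes that passed the filter through mutant libraries. In ESC, 2 smooth muscle genes and 1 matrix gene were called lower, where 3.13% of all tested genes were.

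Genes were ranked by how near their group means lay to those of 2 members, after each gene was centred on its own mean. The measure was the root mean square difference in log2 over the 10 groups. Unnamed genes, pseudogenes and genes with provisional symbols were passed over, so nearer genes of these kinds may exist. For Acta2 the nearest were Hand1, a transcription factor of the heart and extraembryonic mesoderm (0.72), Pmp22 (0.75), Prrx2 (0.86) and Pkdcc (0.89), where the median over all tested genes was 3.07. Hand1 had mean levels of 597 scaled RPKM in mutant cells and 263 in wild-type cells at day 6. For Pdgfra they were Amer3 (0.15), Rbms3 (0.17), Fkbp7 (0.19) and Lpar3 (0.22), against a median of 1.13.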

How the data were processed

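Total RNA of 30 libraries (3 per group) was made into ScriptSeq v2 libraries, per the labels' protocols. The authors deposited RPKM values per gene. STAR, DESeq2 and the mm10 build appear in the submitters' processing notes, and neither these sources nor the labels state versions, annotation, strand setting or counting. The table's header lacks a name for the gene ID column, so columns were read 1 field to the right of their names. Symbols were found for 52403 of 52636 IDs. RPKM were divided by median-ratio size factors (0.888 to 1.106, from 11618 genes), filtered at 1 in at least 3 libraries, and tested as log2(value + 0.5) with limma 3.58.1 in R 4.3.3, in a single fit of all 10 groups, after tests on simulated data. Calls need an adjusted p (Benjamini-Hochberg) below 0.05 together with a log2 change of 1 or more. Genes of the 4 lists were named by the smallest p of the mutant difference averaged over stages, and alternatives are given below. Members and lists were chosen with earlier results of these data known. Read totals were inferred from the steps of the RPKM values, so they are estimates. Of the series' 34 samples, 4 were not analysed here. Replicates share numbers between groups; over 15 same-numbered pairs the deviations from the group means correlated at -0.52 to 0.41.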

Additional observations from a re-analysis of the deposited data

Results flagged for a closer look

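For 6 of the 8 tested members the mutant difference depended on the stage, by a limma F test of the mutant difference across the 5 stages. The adjusted p was 0.0019 for Acta2, 0.029 for Cnn1, 0.0048 for Myl9, 0.034 for Cald1, 0.0021 for Pdgfra and 2.2e-06 for Pdgfrb. It was 0.13 for Postn and 0.68 for Thy1. Over all tested genes 42.2% had an adjusted p under 0.05 in this test.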

How the results depend on the processing

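Over all alternatives, 0 results reversed. For single genes 3386 values kept their side of the threshold, 92 calls were lost and 73 gained. Counts of members called higher in mutant cells changed as follows. A pseudocount of 0.1 gave 1 in ESC (and 2 lower). A pseudocount of 1 gave 1 at day 4. A filter at 5 gave 1 at day 4 and 3 at day 6. Adjusted p alone, with no size limit, gave 1 in ESC (and 1 lower), 3 at day 4, 5 at day 5, 6 at day 6 and 6 for the mean of stages. The spread of the compared groups alone gave 1 at day 4 and 4 at day 6, where Acta2 and Postn were lost and Cnn1 was gained. For the change from day 3 to day 6, a filter at 5 gave 3 rising and 0 falling in mutant cells and 1 rising in wild-type cells. For the difference between genotypes in the change from ESC to day 3, a pseudocount of 0.1 gave 1 higher and 1 lower, and adjusted p alone 1 lower.

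The contractile list had 2 called at day 5 with a pseudocount of 0.1, and also without the library with mature heart transcripts, an alternative chosen after seeing the data. With no filter it had 4 at day 6, with a filter at 5 it had 0 at day 5 and 1 at day 6, and with adjusted p alone 1, 5 and 5 at days 4, 5 and 6. The PDGF and pericyte list had 2 at day 4 with no scaling or equal sums, 1 with a pseudocount of 1, and 0 with the spread of the compared groups alone, and at day 6 it had 3 with a pseudocount of 0.1 or adjusted p alone. The mesenchyme list had 4 at day 5 with a pseudocount of 1, 5 at day 6 with a filter at 5, and 0 at day 4 with the spread of the compared groups. The TGF beta list had 8 at day 4 and 9 at day 6 with adjusted p alone, and 2 at day 4 with the spread of the compared groups.

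Leaving out 1 library at a time gave 1 to 4 members called higher at day 4, 3 to 4 at day 5, 4 to 6 at day 6 and 0 to 1 for the mean of stages. Day 4 gave 4 without the first wild-type library and 1 without the third. The mean of stages gave 0 without any 1 of 7 libraries: wild type ESC 1, day 3 3, day 4 2, day 4 3, day 5 1 and day 6 1, and mutant day 4 2 (replicate numbers after the stage). For the genotype difference in the change from day 3 to day 6 the count was 3 to 6, and in that from ESC to day 3, 0 to 1 lower. The wild-type rise from day 3 to day 6 was called for 2 to 3, with Pdgfrb lost without the first day 3 library and Postn without the third day 6 library. The lists gave 2 to 4, 2 to 3 and 1 to 3 (PDGF and pericyte), 0 to 0, 1 to 2 and 1 to 3 (contractile), 3 to 4, 6 to 8 and 6 to 12 (mesenchyme), and 3 to 6, 4 to 5 and 4 to 5 (TGF beta) at days 4, 5 and 6. Among these, the PDGF list fell to 2 at day 4 without the first or the third wild-type library, and the TGF beta list to 3 without the second. The cause of these changes was not tested, apart from the filter at 5, which leaves fewer members to test.

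Replicate numbers were used as names only, since the labels tie them to nothing shared and 7 of 15 same-numbered pairs, not every pair, correlated above 0.1. With the replicate block, members called higher were 2, 3 and 5 at days 4, 5 and 6, and no count changed. Equal sums moved the median of all genes by -0.23 and -0.19 in the changes from ESC to day 3 in mutant and wild-type cells, by 0.16 in the wild-type change from day 3 to day 6, and by -0.13 in the difference of the later changes. With that scaling Cnn1 no longer passed for that difference (1.92, limma adjusted p = 0.051). With a pseudocount of 1, Pdgfra was 0.99 at day 4 and 0.90 at day 5, under the size limit. Depth limits Tagln and Myh11, whose reads are few.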

Other observations

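Relatives of Cnn1 and Myl9 that most cells express had higher levels than those members at day 6. Cnn2, the calponin of non-muscle cells, had 101, 101 and 136 scaled RPKM in mutant cells at day 3, against 202, 198 and 192 in wild-type cells, and 258, 220 and 267 in mutant cells at day 5, against 156, 164 and 174 in wild-type cells. The groups did not overlap on either day, in opposite orders, and neither difference reached the size limit (log2 -0.82 and 0.59, limma adjusted p = 0.0013 and 0.013). Myl12a, a non-muscle relative of Myl9, had 208, 261 and 294 in mutant cells at day 6, against 190, 242 and 287 in wild-type cells, with overlap.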
